A study of Mus musculus with 6 samples.

Results

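The genes described here are 38 genes of the extracellular matrix, all of them collagens, laminins or matrix glycoproteins, measured in muscle satellite cells after injury. They were chosen by name, as a list of matrix genes, out of the 54123 genes to which transcripts in the deposited files could be assigned. The rule uses names and no threshold on a measured value, and the list was drawn up with earlier results of these data known. Of the 38 genes, 14 were set down as basement membrane genes and 24 as interstitial matrix genes. All 38 passed the filter on low counts and are among the 17084 genes tested. The question put to the data was whether the 3 genotypes of the study differed in these genes, and whether basement membrane and interstitial matrix differed in the same way.

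The series holds 6 RNA sequencing libraries of satellite cells, the resident stem cells of skeletal muscle, from adult C57BL/6 mice. In every group the tibialis anterior and gastrocnemius muscles were injured by injection of cardiotoxin, a snake venom peptide that breaks down muscle fibres, and sorting by fluorescence followed after 30 h. There were 2 libraries of Jmjd3 KO cells, 2 of Utx KO cells and 2 of Tdt control cells. Jmjd3 KO cells carry a knockout of JMJD3 (gene Kdm6b) and Utx KO cells a knockout of UTX (gene Kdm6a), 2 related demethylases that act on a repressive mark of histone H3. The title of the series writes the knockouts as scKO and names the control wild type. No source used here gives the Cre driver, the deleted exons, the sex and exact age of the mice, the number of mice behind a library or the marker gate of the sort.

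Basement membrane is the thin sheet that wraps each muscle fibre and covers the satellite cell on the fibre. It is built from a network of laminin trimers and a network of collagen IV, which nidogens and the heparan sulfate proteoglycans perlecan and agrin join to each other. Interstitial matrix lies between the fibres and is made of fibrillar collagens, collagen VI, fibronectin, elastic fibres and small leucine-rich proteoglycans. Matricellular proteins such as tenascin-C, SPARC and thrombospondins are secreted into the matrix but act mainly on cells and on other matrix proteins, and tenascin-C is known to be deposited after muscle injury. Most interstitial matrix in muscle is attributed to fibro-adipogenic progenitors, the resident fibroblast-like cells, and satellite cells are known to make part of their own niche.

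The libraries held between 53750675 and 77675388 estimated reads, and every gene of the list had at least some reads in every library. Kdm6a stood at 7.68 and 7.38 CPM (reads scaled to the normalised library size) in Utx KO, against 32.8 and 34.0 CPM in Tdt control. Kdm6b had 15.9 and 16.5 CPM in the Jmjd3 KO libraries, against 29.9 and 22.7 CPM in Tdt control, so the targeted gene was lower under both labels but less far in Jmjd3 KO (log2 fold change -0.70 ± 0.12, edgeR adjusted p = 0.0243) than Kdm6a in Utx KO (-2.15 ± 0.06, adjusted p = 1.02e-05). The 10 satellite cell markers summed to 2749 and 2773 CPM in Jmjd3 KO, 2895 and 2915 CPM in Utx KO, and 2823 and 2828 CPM in Tdt control. Single markers of that list did differ by edgeR. Against Tdt control, Myod1 was lower in Jmjd3 KO (-0.22 ± 0.04, adjusted p = 0.0336) and in Utx KO (-0.22 ± 0.04, adjusted p = 0.0461). Myf5 was higher in Utx KO than in Tdt control (0.44 ± 0.05, adjusted p = 0.0153). Myf5, Vcam1 and Cxcr4 were called lower in Jmjd3 KO than in Utx KO. Markers of other cells were present as well. The sum of 10 fibro-adipogenic markers that are not in the matrix list was 603 and 581 CPM in Jmjd3 KO, 545 and 547 CPM in Utx KO, and 524 and 564 CPM in Tdt control. Most of that sum came from Cd34, which satellite cells also express, and Gsn. Cd34 had 304 and 301 CPM in Jmjd3 KO, 266 and 249.7 CPM in Utx KO, and 286 and 299 CPM in Tdt control. Gsn had 227 and 212 CPM in Jmjd3 KO, 212 and 222 CPM in Utx KO, and 172 and 191 CPM in Tdt control. Without Cd34 and Gsn, the sums of the groups overlapped. The sum of 10 macrophage and monocyte markers was 327 and 286 CPM in Jmjd3 KO, 189 and 224 CPM in Utx KO, and 211 and 247 CPM in Tdt control. The 8 neutrophil markers summed to 154 and 115 CPM in Jmjd3 KO, 106 and 127 CPM in Utx KO, and 71.9 and 82.9 CPM in Tdt control, so both knockouts lay above the control. Of the 6 tested, 2 were called higher in Jmjd3 KO against Tdt control (Csf3r and S100a9), while 1.97% of all genes tested were. The 8 mural markers had a median log2 fold change of -0.40 in Utx KO against Tdt control, and the 10 endothelial markers -0.33, with no marker of either list called by edgeR. The 7 Schwann cell markers summed to 274 and 280.5 CPM in Jmjd3 KO, 355 and 355 CPM in Utx KO, and 347 and 354 CPM in Tdt control. The 7 tenocyte markers summed to between 32.4 and 56.1 CPM. The part of these cells in the results was not tested. In sorted bulk samples, fewer cells of a type and less RNA per cell cannot be told apart.

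Compared per length, as TPM (a share of all transcripts in a library), the matrix genes spread from 181 TPM for Sparc, the mean over the 6 libraries, to 0.311 TPM for Col14a1. The 6 highest were Sparc, Tnc, Col3a1, Thbs1, Col5a2 and Bgn, with means of 181, 163, 91.8, 71.1, 50.3 and 47.6 TPM, all of them interstitial genes and 3 of them matricellular. The highest basement membrane genes followed directly, with means of 39.7 TPM for Hspg2, which encodes perlecan, 37.2 TPM for Lamc1, the shared gamma chain of most laminins, and 32.1 TPM for Col4a1. Eln, the elastin gene, and Lama4, a laminin alpha chain gene typical of vessels, were near the bottom with 0.640 and 0.922 TPM. The 38 genes together came to 931 and 946 TPM in Jmjd3 KO, 913 and 953 TPM in Utx KO, and 930.1 and 966 TPM in Tdt control. In TPM the groups overlapped. Summed as CPM, in which long genes weigh more, the 38 genes came to 7882 and 8033 CPM in Jmjd3 KO, 8194 and 8780.0 CPM in Utx KO, and 8937 and 8473 CPM in Tdt control, with both Jmjd3 KO libraries below the other 4. That order came from Tnc, the largest single part of the CPM sum. Tnc had 1465 and 1540.4 CPM in Jmjd3 KO, 2088 and 2157 CPM in Utx KO, and 2473 and 2319.5 CPM in Tdt control. Without Tnc, the CPM sums of the groups overlapped.

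**Figure D1:**
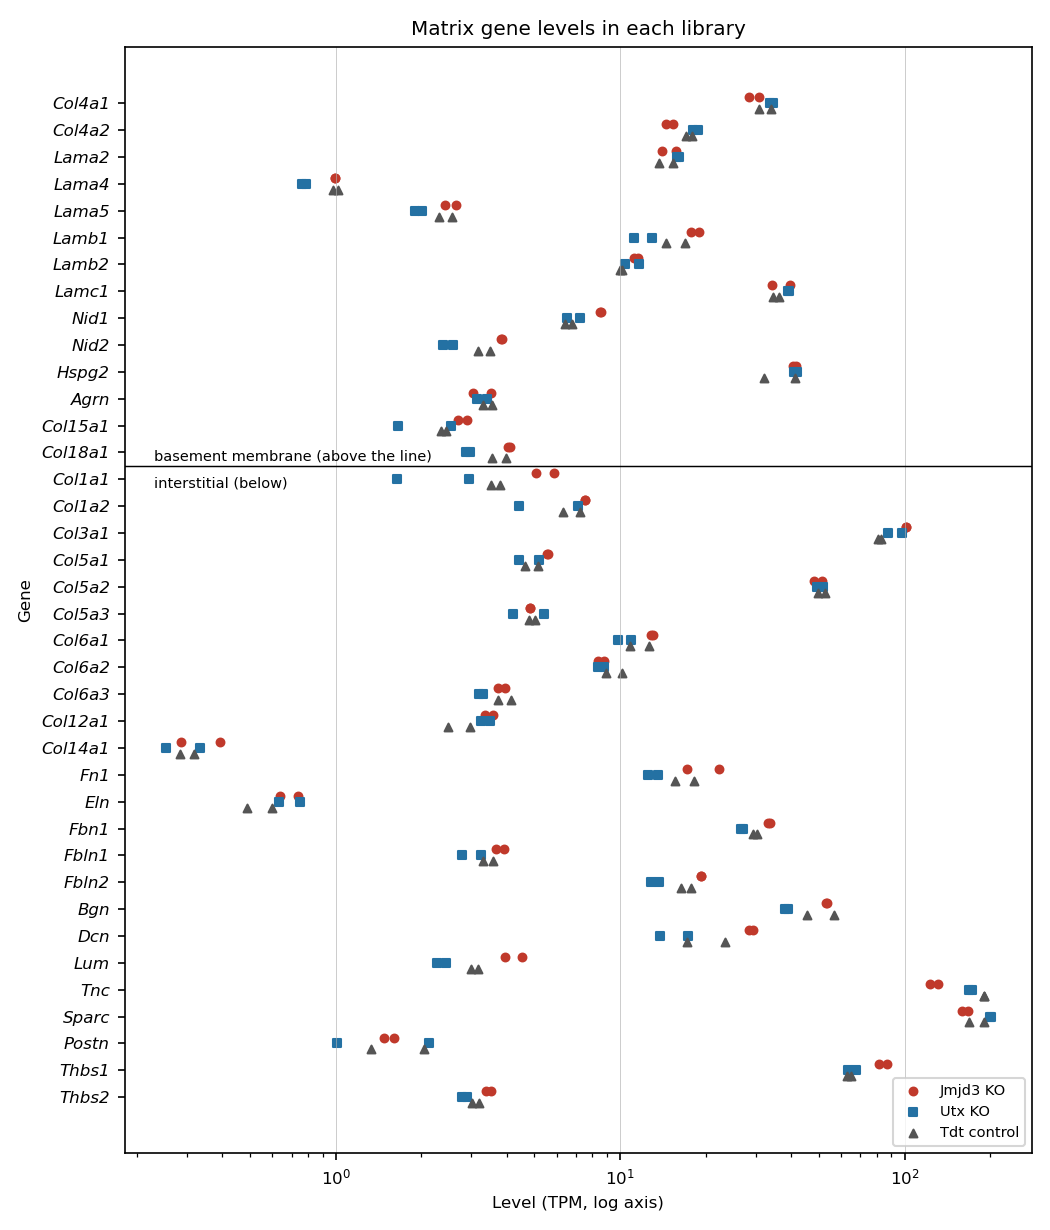
Level of each of the 38 matrix genes in TPM (log axis) in each library, with circles for Jmjd3 KO, squares for Utx KO and triangles for Tdt control (2 libraries each). Levels run from 0.311 TPM (mean over the 6 libraries) for Col14a1 to 181 TPM for Sparc, and most genes differ far more from each other than between genotypes.

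Differences between the genotypes were selective and mostly small, and they were most numerous between the 2 knockouts. In Jmjd3 KO against Utx KO, 15 of 38 genes changed (39.5%), while 8.02% of all genes tested changed in that comparison. Of the 38, 11 were higher (5.13% of all genes were) and 4 lower (2.89% of all genes). When Jmjd3 KO was set against Tdt control, 3 of 38 changed (7.89%, with 3.003% of all genes): Thbs1 rose, and Tnc and Col4a2 fell. In Utx KO against Tdt control, 3 of 38 changed (7.89%, with 1.72% of all genes), and Col18a1, Fbln2 and Bgn all fell. By direction, 1.97% of all genes rose and 1.03% fell in Jmjd3 KO against Tdt control, and 0.790% rose and 0.925% fell in Utx KO against Tdt control. A gene counted as changed where edgeR's quasi-likelihood test gave an adjusted p under 0.05 (Benjamini-Hochberg, over all 17084 genes). Among genes of at least 5 CPM in 2 libraries, tested alone, 5.20% were called in Jmjd3 KO against Tdt control, 2.85% in Utx KO against Tdt control and 11.8% in Jmjd3 KO against Utx KO, and 4, 4 and 15 of the 36 matrix genes in that range. The 3 comparisons share libraries, so their counts are not independent.

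The genes called in Jmjd3 KO against Utx KO included every gene called in the 2 comparisons with the control. No gene was called in both comparisons with the control, and 9 were called between the knockouts alone. The median log2 fold change of the 38 genes was 0.06 in Jmjd3 KO against Tdt control, -0.15 in Utx KO against Tdt control, and 0.18 in Jmjd3 KO against Utx KO, with medians of all genes at -0.00, -0.00 and 0.00. Both Jmjd3 KO libraries lay above both Utx KO libraries for 20 of the 38 genes (28.6% of all genes tested did so) and below them for 10 (28.6% of all genes). Both Jmjd3 KO libraries lay above both Tdt control libraries for 12 genes (26.2% of all genes) and below them for 9 (25.5%), and the Utx KO libraries lay above the control for 7 (22.3%) and below it for 17 (23.3%). With 2 libraries a group these counts rest on few values. The count of 15 fell to 4 without Jmjd3 KO replicate 1, 3 without Jmjd3 KO replicate 2 and 5 without Utx KO replicate 1, while the share of all genes called fell to 1.93%, 1.88% and 1.63% in the same fits. The 3 calls in Jmjd3 KO against Tdt control fell to Tnc alone without either Jmjd3 KO library or without Tdt control replicate 1, and to Tnc among 2 calls, the other being Col12a1, without Tdt control replicate 2. Of the 3 calls in Utx KO against Tdt control none was made when any 1 of the 6 libraries was left out, so those 3 calls depend on all libraries being in the fit.

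**Figure D2:**
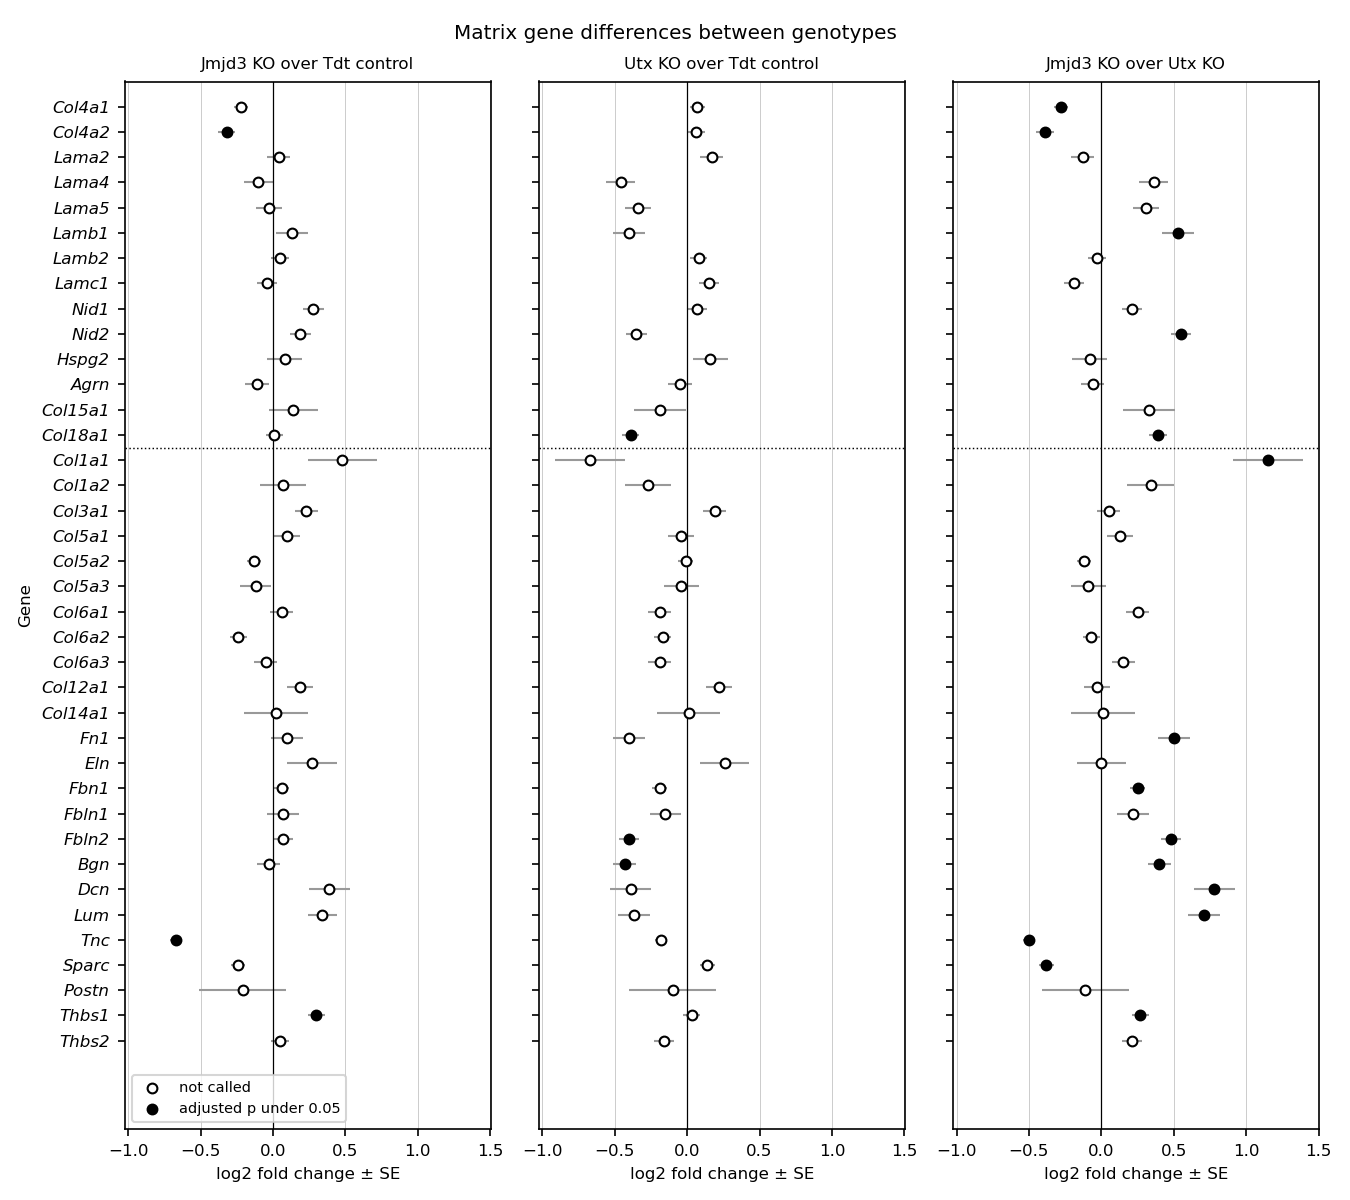
Log2 fold change ± SE of each matrix gene in the 3 comparisons, from edgeR over all 6 libraries (2 per genotype), with filled points at an adjusted p under 0.05 and the dotted line dividing basement membrane genes (above) from interstitial genes (below). The panel of Jmjd3 KO over Utx KO holds 15 filled points, and each panel against Tdt control holds 3.

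Among the basement membrane genes, collagen IV was lower in Jmjd3 KO. Col4a1 and Col4a2 encode the alpha1 and alpha2 chains, which assemble into the main collagen IV trimer of muscle. Col4a2 had 172 and 176 CPM in Jmjd3 KO, 218 and 237 CPM in Utx KO, and 219 and 216 CPM in Tdt control. The Jmjd3 KO libraries lay below the other 4, and the Utx KO and Tdt control libraries overlapped. Col4a2 fell in Jmjd3 KO against Tdt control (log2 fold change -0.32 ± 0.06 SE, adjusted p = 0.0270) and against Utx KO (-0.39 ± 0.06, adjusted p = 0.00891). Col4a1 had 332 and 346 CPM in Jmjd3 KO, 399.5 and 426 CPM in Utx KO, and 389.7 and 397 CPM in Tdt control. It showed the same order of groups and fell against Utx KO (-0.28 ± 0.05, adjusted p = 0.0160), while the difference from Tdt control missed the threshold (-0.22 ± 0.05, adjusted p = 0.0628). DESeq2 called Col4a1 in Jmjd3 KO against Tdt control. Neither chain was called in Utx KO against Tdt control, with log2 fold changes of 0.07 for Col4a1 and 0.06 for Col4a2. Per length, the ratio of Col4a1 to Col4a2 was 1.97 and 2.01 in Jmjd3 KO, 1.87 and 1.84 in Utx KO, and 1.81 and 1.90 in Tdt control.

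The 2 collagen IV genes lie head to head on chromosome 8 and are transcribed away from each other, Col4a1 (ENSMUSG00000031502.11) at 11198423 to 11312826 on the minus strand and Col4a2 (ENSMUSG00000031503.13) at 11312805 to 11449287 on the plus strand of GRCm38. Because both fell in Jmjd3 KO against Utx KO, their start regions are shown, from RefSeq on GRCm38.p6, from 250 bases before to 50 bases after each start. The window of Col4a1 is chr8:11312777-11313076 on the minus strand and that of Col4a2 is chr8:11312555-11312854 on the plus strand. The starts lie 21 bases apart, and the capitals mark the 78 bases that the windows share, read from opposite strands.
Col4a1: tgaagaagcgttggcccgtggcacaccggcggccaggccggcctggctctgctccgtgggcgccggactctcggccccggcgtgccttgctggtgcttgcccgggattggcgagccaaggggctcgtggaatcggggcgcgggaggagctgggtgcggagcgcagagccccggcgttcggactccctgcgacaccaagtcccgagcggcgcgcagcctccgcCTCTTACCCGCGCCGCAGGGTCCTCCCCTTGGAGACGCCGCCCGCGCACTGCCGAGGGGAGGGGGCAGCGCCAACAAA
Col4a2: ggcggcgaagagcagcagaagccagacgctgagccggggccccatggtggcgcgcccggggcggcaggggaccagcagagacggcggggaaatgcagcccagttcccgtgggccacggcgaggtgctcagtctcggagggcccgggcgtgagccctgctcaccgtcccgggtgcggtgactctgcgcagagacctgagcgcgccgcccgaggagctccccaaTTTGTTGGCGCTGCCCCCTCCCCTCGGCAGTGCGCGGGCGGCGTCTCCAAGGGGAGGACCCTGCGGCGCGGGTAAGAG
Both windows are rich in G and C, with 74.0% for Col4a1 and 73.7% for Col4a2, against a median of 52.7% over 32851 windows of the same length. Searched on both strands, the GC box GGGCGG was found 1 time in the Col4a1 window and 3 times in the Col4a2 window, and 35.7% of all windows hold it. The Col4a1 match and 1 of the 3 Col4a2 matches lie in the shared bases and are the same site, read from opposite strands. The CCAAT box, CCAAT, was found 1 time in each window, and 37.4% of all windows hold it. The letters TATAAA were in neither window, and 13.6% of all windows hold them. No match overlapped another within a window. These matches describe the letters only. No source used here gives the strandedness of the libraries, and the 2 annotated genes overlap only around their starts.

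The other basement membrane genes that changed were higher in Jmjd3 KO than in Utx KO, with the control between the knockouts or near Jmjd3 KO. Nid2 encodes nidogen-2, a linker between the laminin and collagen IV networks. It had 27.5 and 26.9 CPM in Jmjd3 KO, 17.7 and 19.6 CPM in Utx KO, and 24.6 and 23.1 CPM in Tdt control, and no groups overlapped. Nid2 rose 1.46-fold in Jmjd3 KO against Utx KO (0.55 ± 0.07, adjusted p = 0.00476), and it kept that call under all 13 alternatives run. In Utx KO against Tdt control it missed the threshold narrowly (-0.35 ± 0.07, adjusted p = 0.05002) and was called by DESeq2, and Nid1, the gene of nidogen-1, was not called by edgeR in any comparison, though DESeq2 called it in Jmjd3 KO against Tdt control.

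Col18a1 encodes collagen XVIII, a basement membrane collagen whose end fragment is endostatin. It had 32.2 and 30.0 CPM in Jmjd3 KO, 22.7 and 24.6 CPM in Utx KO, and 30.8 and 31.2 CPM in Tdt control. The Utx KO libraries lay below the other 4. Col18a1 fell in Utx KO against Tdt control (-0.39 ± 0.06, adjusted p = 0.0293) and was higher in Jmjd3 KO than in Utx KO (0.39 ± 0.06, adjusted p = 0.0111). Its main transcript gave 54.0% and 50.7% of the gene's TPM in Jmjd3 KO, 50.3% and 49.8% in Utx KO, and 62.0% and 53.6% in Tdt control, a range of 49.8% to 62.0% over the 6 libraries.

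Of the 6 laminin chains, 1 was called by edgeR. Lamb1, the beta1 chain gene, had 155 and 165 CPM in Jmjd3 KO, 102 and 119.9 CPM in Utx KO, and 162 and 131 CPM in Tdt control. It rose in Jmjd3 KO against Utx KO (0.53 ± 0.11, adjusted p = 0.0298), and the Jmjd3 KO and Tdt control libraries overlapped. DESeq2 also called Lamb1, Lama4 and Lama5 lower in Utx KO than in Tdt control. Lamb2, the beta2 chain gene concentrated at the neuromuscular junction, was not called. Per length, Lamb1 over Lamb2 was 1.53 and 1.69 in Jmjd3 KO, 1.07 and 1.1 in Utx KO, and 1.69 and 1.42 in Tdt control. Lama2, the alpha2 chain gene whose loss causes a muscular dystrophy, had 147 and 161 CPM in Jmjd3 KO, 167 and 169.7 CPM in Utx KO, and 160.2 and 139.8 CPM in Tdt control, with no call. Hspg2 and Agrn, the perlecan and agrin genes, were not called either, and Hspg2 ranged from 703 CPM in Tdt control replicate 2 to 954 CPM in Tdt control replicate 1 and in Utx KO replicate 2.

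In the interstitial matrix, the 3 small leucine-rich proteoglycan genes of the list, whose products bind collagen fibrils and growth factors, were higher in Jmjd3 KO than in Utx KO. Dcn, the decorin gene, had 58.3 and 55.7 CPM in Jmjd3 KO, 29.3 and 37.2 CPM in Utx KO, and 38.1 and 49.1 CPM in Tdt control. Lum, the lumican gene, had 10.8 and 9.24 CPM in Jmjd3 KO, 6.45 and 5.83 CPM in Utx KO, and 7.73 and 8.11 CPM in Tdt control. For both genes the control lay between the knockouts with no overlap. Dcn rose by 0.78 ± 0.14 (adjusted p = 0.0178) and Lum by 0.71 ± 0.11 (adjusted p = 0.0107) in Jmjd3 KO against Utx KO, and edgeR called neither against the control, while DESeq2 called Dcn in Jmjd3 KO against Tdt control. Dcn and Lum are neighbours on chromosome 10, with 47.0 kb between them.

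Bgn, the biglycan gene, was the highest of the 3 per length. It had 181 and 177 CPM in Jmjd3 KO, 137 and 134 CPM in Utx KO, and 168 and 197 CPM in Tdt control. Utx KO lay below the other 4 libraries, and Jmjd3 KO and Tdt control overlapped. Bgn fell in Utx KO against Tdt control (-0.43 ± 0.08, adjusted p = 0.0415) and was higher in Jmjd3 KO than in Utx KO (0.40 ± 0.08, adjusted p = 0.0215). Summed over the 3 genes, the level was 87.2 and 85.4 TPM in Jmjd3 KO, 55.0 and 57.6 TPM in Utx KO, and 65.8 and 82.9 TPM in Tdt control. Bgn lies on chromosome X, as does Kdm6a, and the part of that position in the values of Bgn was not tested.

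Dcn and Lum also count as markers of fibro-adipogenic cells. In Jmjd3 KO against Utx KO, 3 of the 12 fibro-adipogenic markers rose, while 5.13% of all genes tested did. The 3 were Dcn, Lum and Cd34, which satellite cells also express. Dcn and Lum belong to the matrix list itself, so Cd34 was the only riser outside it. No marker of the list was called lower, and the list median was 0.22. Dpt went the other way, uncalled, with 28.5 and 27.0 CPM in Jmjd3 KO and 32.4 and 35.5 CPM in Utx KO. Gsn overlapped between the knockouts. Pdgfra, the defining receptor gene of those cells, had 21.4 and 19.0 CPM in Jmjd3 KO, 16.3 and 18 CPM in Utx KO, and 19.9 and 22 CPM in Tdt control, and was not called. In the same comparison 8 of 10 macrophage and monocyte markers rose. The part of such cells in the differences of matrix genes was not tested.

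Fn1 and 2 of the 4 elastic fibre genes, Fbn1 and Fbln2, were higher in Jmjd3 KO than in Utx KO. Fbln2, the gene of fibulin-2, which binds elastic fibres and basement membranes, had 107 and 109 CPM in Jmjd3 KO, 72.6 and 83.0 CPM in Utx KO, and 103 and 103 CPM in Tdt control. It fell in Utx KO against Tdt control (-0.40 ± 0.07, adjusted p = 0.0412) and was higher in Jmjd3 KO than in Utx KO (0.48 ± 0.07, adjusted p = 0.0104). Utx KO stood apart from the other 4 libraries.

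Fbn1, the gene of fibrillin-1, the main microfibril protein, had 443 and 457 CPM in Jmjd3 KO, 369.8 and 387 CPM in Utx KO, and 449 and 414 CPM in Tdt control. It rose in Jmjd3 KO against Utx KO by 0.25 ± 0.05 (adjusted p = 0.0320), a small difference between groups that did not overlap. DESeq2 also called Fbn1 lower in Utx KO than in Tdt control. Fn1, the fibronectin gene, had 213 and 262 CPM in Jmjd3 KO, 159.7 and 178 CPM in Utx KO, and 205 and 239.6 CPM in Tdt control. It rose in Jmjd3 KO against Utx KO (0.50 ± 0.11, adjusted p = 0.0400), and Jmjd3 KO and Tdt control overlapped. Of its transcripts, Fn1-211 was listed at 0 in both Jmjd3 KO libraries, against 8.0% and 10.1% of the gene's TPM in Utx KO and 8.19% and 4.98% in Tdt control, an estimate that divides reads among near-identical splice forms and had no test. Fbln1 and Eln, which encode fibulin-1 and elastin, were not called by edgeR in any comparison, and Eln had a log2 fold change of 0.00 between the knockouts.

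Of the 6 fibrillar collagen genes, 1 changed. Col1a1 encodes the alpha1 chain of collagen I, the most abundant collagen of connective tissue. It had 49.1 and 40.4 CPM in Jmjd3 KO, 14 and 26.0 CPM in Utx KO, and 34.3 and 29.6 CPM in Tdt control. The groups did not overlap, although the Utx KO libraries were far apart. Col1a1 was 2.23-fold higher in Jmjd3 KO than in Utx KO (1.15 ± 0.24, adjusted p = 0.0301), the largest difference of any matrix gene of the list in any of the 3 comparisons. That log2 fold change was between 0.78 and 1.67 over the 13 alternatives. The call was lost under 3 of them, each leaving out 1 library of these groups.

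Col1a2, which encodes the partner chain of collagen I, was not called. It had 55.5 and 54.5 CPM in Jmjd3 KO, 35.0 and 52.1 CPM in Utx KO, and 56.2 and 48.6 CPM in Tdt control. Per length, Col1a1 over Col1a2 was 0.782 and 0.676 in Jmjd3 KO, 0.373 and 0.415 in Utx KO, and 0.525 and 0.560 in Tdt control, so the balance of the 2 transcripts differed between the genotypes without overlap (a description, with no test). Col3a1, the highest fibrillar collagen gene, had 757 and 757 CPM in Jmjd3 KO, 669 and 799 CPM in Utx KO, and 666 and 621 CPM in Tdt control. Col5a2, whose product regulates fibril diameter, had 481 and 499.6 CPM in Jmjd3 KO, 516 and 549.5 CPM in Utx KO, and 532 and 539 CPM in Tdt control. Neither was called by edgeR in any comparison (DESeq2 called Col3a1 in Jmjd3 KO against Tdt control), with log2 fold changes of 0.23, 0.19 and 0.05 for Col3a1 and -0.13, -0.01 and -0.12 for Col5a2 in Jmjd3 KO against Tdt control, Utx KO against Tdt control and Jmjd3 KO against Utx KO.

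The matricellular genes held the clearest change of the list. Tnc, the gene of tenascin-C, had 1465 and 1540.4 CPM in Jmjd3 KO, 2088 and 2157 CPM in Utx KO, and 2473 and 2319.5 CPM in Tdt control. The 3 genotypes did not overlap, and Jmjd3 KO was far below the others. Tnc fell 1.59-fold in Jmjd3 KO against Tdt control (-0.67 ± 0.04, adjusted p = 5.82e-04) and also fell against Utx KO (-0.50 ± 0.04, adjusted p = 0.00127). Both calls were kept under all 13 alternatives run. In Utx KO against Tdt control edgeR did not call it (-0.18 ± 0.04, adjusted p = 0.106), and DESeq2 did. Most of its level came from Tnc-204, with 74.7% and 77.1% of the gene's TPM in Jmjd3 KO, 75.0% and 74.4% in Utx KO, and 73.9% and 74.8% in Tdt control, so the split between its transcripts varied little.

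Thbs1, the gene of thrombospondin-1, an inhibitor of vessel growth and activator of latent TGF-beta, moved the other way. It had 733 and 679.9 CPM in Jmjd3 KO, 560.3 and 608 CPM in Utx KO, and 580.2 and 566 CPM in Tdt control. Jmjd3 KO lay above the other 4 libraries, which overlapped between Utx KO and Tdt control. Thbs1 rose in Jmjd3 KO against Tdt control (0.30 ± 0.06, adjusted p = 0.0335) and against Utx KO (0.27 ± 0.06, adjusted p = 0.0260). Per length, Tnc over Thbs1 was 1.43 and 1.62 in Jmjd3 KO, 2.67 and 2.54 in Utx KO, and 3.04 and 2.94 in Tdt control.

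Sparc, the gene of a collagen-binding glycoprotein, had 535 and 505 CPM in Jmjd3 KO, 677 and 675 CPM in Utx KO, and 589.8 and 636 CPM in Tdt control. The groups did not overlap, with the control between the knockouts. Sparc fell in Jmjd3 KO against Utx KO (-0.38 ± 0.05, adjusted p = 0.00646), and the difference from Tdt control missed the threshold (-0.24 ± 0.05, adjusted p = 0.0526). DESeq2 called Sparc in Jmjd3 KO against Tdt control. Postn and Thbs2, the periostin and thrombospondin-2 genes, were not called, and Postn had the widest ratio between libraries of 1 group, with 5.02 and 9.67 CPM in the Utx KO libraries.

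Sparc and Col1a1 lie on chromosome 11, 14 Mb and 25.5 Mb from Kdm6b. In Jmjd3 KO against Utx KO, 14.5% of the 1284 genes tested on chromosome 11 were called, against 7.49% of the 15800 genes on other chromosomes. Against Tdt control the shares for Jmjd3 KO were 8.10% on chromosome 11 and 2.59% elsewhere, and for Utx KO 1.32% and 1.75%. The part of the genotype around Kdm6b in the values of Sparc and Col1a1 was not tested.

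**Figure D3:**
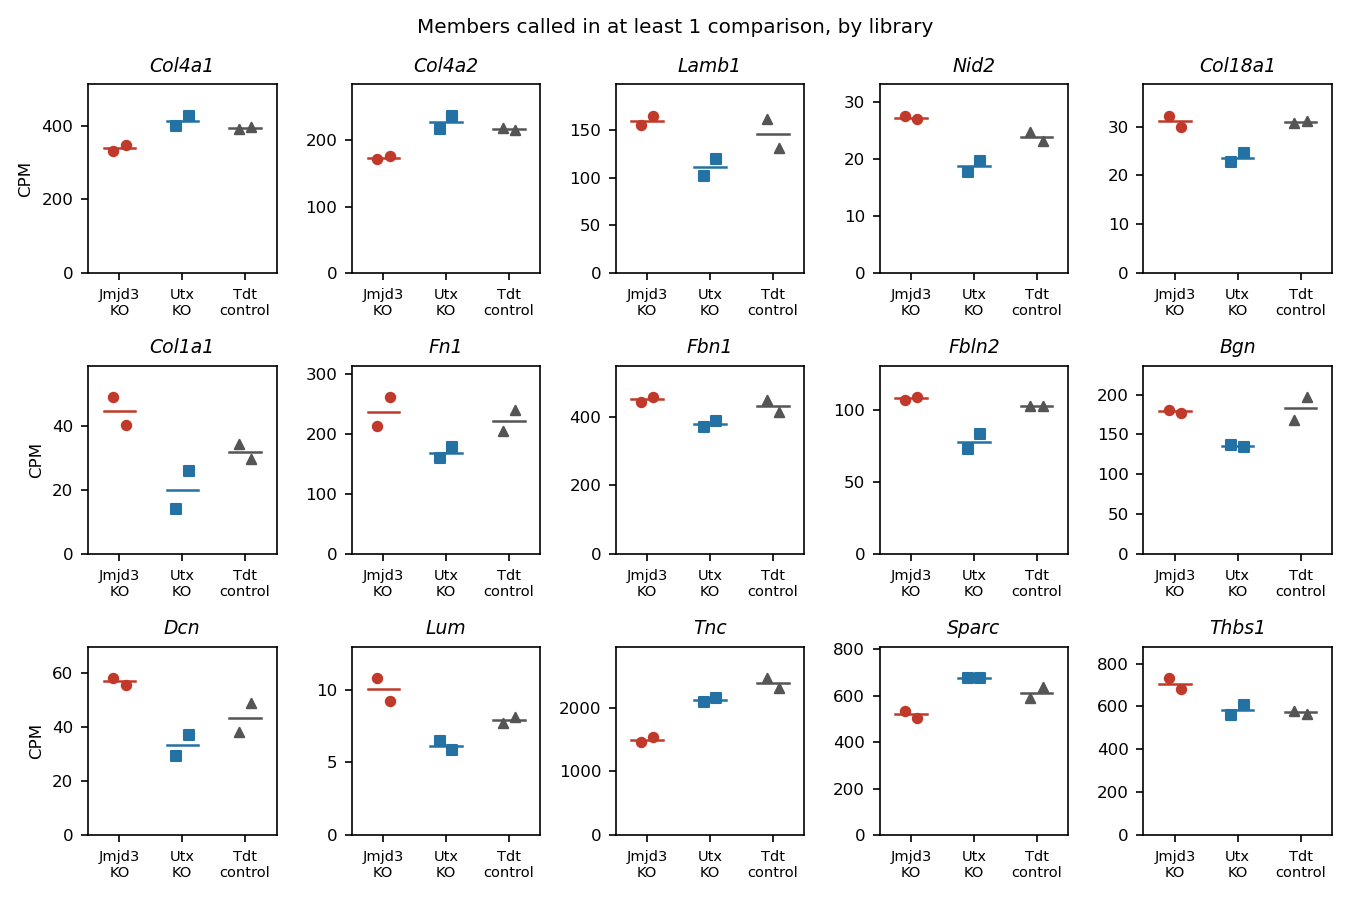
CPM in each library (points) and group mean (line) of the 15 matrix genes called in at least 1 comparison, for Jmjd3 KO, Utx KO and Tdt control (2 libraries each), on axes that start at 0. Tnc, Col4a1 and Col4a2 are lowest in Jmjd3 KO, while Bgn, Fbln2 and Col18a1 are lowest in Utx KO.

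The remaining 23 genes were called by edgeR in no comparison. DESeq2 called Col3a1, Col6a2 and Nid1 among them in Jmjd3 KO against Tdt control, Lama4 and Lama5 in Utx KO against Tdt control, and Col6a1 and Lama5 between the knockouts. Their log2 fold changes ran from -0.24 (Col6a2) to 0.28 (Nid1) in Jmjd3 KO against Tdt control, from -0.46 (Lama4) to 0.26 (Eln) in Utx KO against Tdt control, and from -0.19 (Lamc1) to 0.36 (Lama4) in Jmjd3 KO against Utx KO. They include the 3 collagen VI genes, whose trimer forms beaded microfilaments near basement membranes and which summed to 25.4 and 25.3 TPM in Jmjd3 KO, 21.3 and 23.0 TPM in Utx KO, and 23.4 and 26.9 TPM in Tdt control. They also include Col12a1 and Col14a1, the fibril-associated collagens, and the collagen XV gene Col15a1. A missed threshold with 2 libraries a group does not show that a gene was equal in the genotypes.

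Set against each other, the compartments summed over all their members had nearly the same ratio in both knockouts. That likeness depended on the measure. Without the highest member of each compartment, the log2 ratio in Jmjd3 KO minus Utx KO was -0.10. With the mean of log2(TPM + 1) it was -0.11. The size of the difference from the control depended on the scale and on 1 control library. Basement membrane genes made up 20.1% and 21.1% of the summed TPM of the 38 genes in Jmjd3 KO, 20.7% and 20.6% in Utx KO, and 20.5% and 18.6% in Tdt control. The log2 ratio of summed basement membrane to summed interstitial TPM was -2.0 and -1.90 in Jmjd3 KO, -1.94 and -1.95 in Utx KO, and -1.96 and -2.13 in Tdt control. Its mean difference was 0.09 in Jmjd3 KO minus Tdt control, 0.10 in Utx KO minus Tdt control, and -0.01 in Jmjd3 KO minus Utx KO, against a pooled SD within groups of 0.0796. Jmjd3 KO overlapped both other groups, and both Utx KO libraries lay just above both Tdt control libraries. From summed CPM the ratio was -1.23 and -1.18 in Jmjd3 KO, -1.20 and -1.21 in Utx KO, and -1.28 and -1.46 in Tdt control, so that all 4 knockout libraries lay above the control, with mean differences of 0.16 in Jmjd3 KO minus Tdt control and 0.16 in Utx KO minus Tdt control. That separation rested on Tnc, the interstitial gene with the most CPM. Without Tnc, both knockouts overlapped the control in the CPM ratio. No test was run on this ratio, and an exact two-sided permutation test of 2 libraries against 2 cannot go below a p of 0.333. The TPM differences from the control rested on 1 control library: they were 0.18 and 0.19 without Tdt control replicate 1, and 0.01 and 0.01 without Tdt control replicate 2.

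Between the knockouts, 5 of 14 basement membrane genes (35.7%) and 10 of 24 interstitial genes (41.7%) were called, with 8.02% of all genes tested. Of the basement membrane genes 3 were higher and 2 lower, and of the interstitial genes 8 were higher and 2 lower. Of all genes tested, 5.13% were higher and 2.89% lower. In each comparison with the control, 1 of 14 and 2 of 24 were called. The shares of all genes there were 3.003% for Jmjd3 KO and 1.72% for Utx KO. The median log2 fold change was 0.09 for basement membrane and 0.18 for interstitial genes in Jmjd3 KO against Utx KO. In Utx KO against Tdt control the medians were 0.01 and -0.16, and in Jmjd3 KO against Tdt control 0.02 and 0.06.

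Both compartments held roles whose summed levels ordered the genotypes in opposite ways. Summed collagen IV was 42.9 and 46.1 TPM in Jmjd3 KO, 51.7 and 53.4 TPM in Utx KO, and 47.9 and 51.9 TPM in Tdt control, while summed nidogens were 12.4 and 12.3 TPM in Jmjd3 KO, 8.90 and 9.84 TPM in Utx KO, and 9.93 and 9.92 TPM in Tdt control. Jmjd3 KO was thus the lowest group for the first and the highest for the second, both of them basement membrane components. On the interstitial side, the matricellular sum was 382 and 377 TPM in Jmjd3 KO, 438 and 443 TPM in Utx KO, and 428 and 451 TPM in Tdt control. The elastic fibre sum was 56.7 and 57.4 TPM in Jmjd3 KO, 42.8 and 44.7 TPM in Utx KO, and 50.8 and 51.1 TPM in Tdt control. The matricellular sum was lowest in Jmjd3 KO and the elastic fibre sum highest there, with no overlap in TPM between Jmjd3 KO and the other groups for either. As CPM the elastic fibre sum was 566 and 582 in Jmjd3 KO, 455 and 486 in Utx KO, and 567 and 531 in Tdt control, so that Jmjd3 KO and Tdt control overlapped. These sums had no test.

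**Figure D4:**
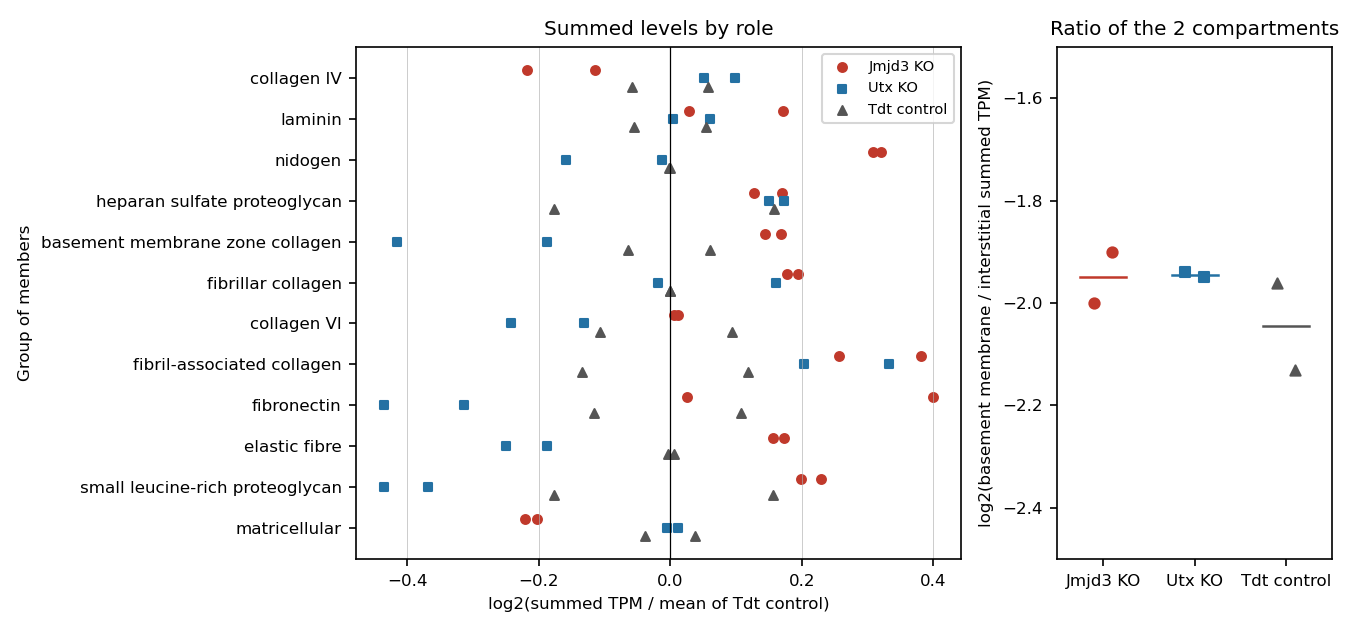
Left, log2 of the summed TPM of each role over the mean of the Tdt control libraries, per library; right, log2 ratio of summed basement membrane to summed interstitial TPM, per library with group means as lines (2 libraries per genotype). Collagen IV and matricellular sums are lowest in Jmjd3 KO and the nidogen and elastic fibre sums highest there, while the ratio of compartments lies between -2.13 and -1.90 in all 6 libraries.

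Genes that make, process, cut or bind this matrix were read from 7 lists written from general knowledge. The counts in these lists stand beside the shares of all genes tested. In Jmjd3 KO against Utx KO, 5.13% of all genes rose and 2.89% fell. Against Tdt control, 1.97% rose and 1.03% fell in Jmjd3 KO, and 0.790% rose and 0.925% fell in Utx KO. Of the calls in these lists that are named, those kept under all 13 alternatives were Mmp14, Adam12, Adamts4 and Itga3 (Jmjd3 KO against Tdt control) and Mmp14, Adam12, Mmp2, Htra1, Tgm2, Lamb3, Emilin1, Col16a1, Col8a1 and Ltbp2 (Jmjd3 KO against Utx KO). Each of the other calls was lost when at least 1 single library was left out. In the list of collagen synthesis and folding, 3 of 20 genes rose in Utx KO against Tdt control, and the same 3 were lower in Jmjd3 KO than in Utx KO. They were Serpinh1, the collagen chaperone HSP47 (553 and 526 CPM in Jmjd3 KO, 679.8 and 726 CPM in Utx KO, 514 and 545 CPM in Tdt control), and the hydroxylase genes P4ha1 and Plod1. Their log2 fold changes in Utx KO against Tdt control were 0.41 ± 0.05 for Serpinh1 (adjusted p = 0.0182), 0.38 ± 0.06 for P4ha1 (adjusted p = 0.0283) and 0.33 ± 0.05 for Plod1 (adjusted p = 0.0248). The calls of P4ha1 and Plod1 in that comparison were lost under 8 of 13 alternatives, among them leaving out any 1 library (adjusted p from 0.0516 to 0.131), and that of Serpinh1 under 4, without either Utx KO or either Tdt control library (0.0571 to 0.0911). For Jmjd3 KO against Tdt control edgeR and DESeq2 called none of the 20, and 3 had an unadjusted p under 0.05. The median of the list was 0.09 in Utx KO against Tdt control and -0.01 in Jmjd3 KO against Utx KO.

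Among 18 matrix proteases, 8 rose and 1 fell in Jmjd3 KO against Utx KO, with a list median of 0.32. Adam12, a membrane protease of regenerating muscle, was the gene that fell, with 124 and 120.1 CPM in Jmjd3 KO, 229 and 230.1 CPM in Utx KO, and 175 and 164 CPM in Tdt control. It was lower in Jmjd3 KO against Tdt control (-0.48 ± 0.05, adjusted p = 0.00506) and higher in Utx KO against Tdt control (0.44 ± 0.05, adjusted p = 0.0153). Between the knockouts the difference was -0.91 ± 0.05 (adjusted p = 2.35e-04).

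Mmp14, a membrane-bound collagenase that activates MMP2, had 86.2 and 90.2 CPM in Jmjd3 KO, 55.8 and 56.6 CPM in Utx KO, and 60.3 and 63.0 CPM in Tdt control. It rose in Jmjd3 KO against both other groups (0.65 ± 0.06 against Utx KO, adjusted p = 0.00122, and 0.52 ± 0.06 against Tdt control, adjusted p = 0.00456). Mmp2, the gene of a gelatinase that cuts collagen IV, had 45.1 and 44.4 CPM in Jmjd3 KO, 23.5 and 27.8 CPM in Utx KO, and 38.8 and 44.5 CPM in Tdt control. It fell in Utx KO against Tdt control (-0.70 ± 0.09, adjusted p = 0.0213) and was higher in Jmjd3 KO than in Utx KO (0.80 ± 0.09, adjusted p = 0.00393). The serine protease gene Htra1 rose by 0.91 ± 0.11 in Jmjd3 KO against Utx KO (adjusted p = 0.00428). Against Tdt control, 3 of 18 rose and 1 fell in Jmjd3 KO, among them Adamts4 (0.67 ± 0.07, adjusted p = 0.00470) and Adamts9 (0.51 ± 0.09, adjusted p = 0.0249), which cut versican and related proteoglycans. In Utx KO against Tdt control 2 rose and 2 fell, with Adamts5 at 0.62 ± 0.09 (adjusted p = 0.0221) and Mmp15 at -0.58 ± 0.11 (adjusted p = 0.0485) beside Adam12 and Mmp2. The call of Mmp15 was lost under 8 of 13 alternatives and that of Adamts5 under 6.

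In the list of matrix trimming and cross-linking, 4 of 14 genes rose and 1 fell in Jmjd3 KO against Utx KO. Tgm2, a transglutaminase gene, rose there (0.66 ± 0.08, adjusted p = 0.00428) and in Jmjd3 KO against Tdt control (0.53 ± 0.08, adjusted p = 0.0165). Pcolce and Bmp1, which take part in cutting the end of procollagen, rose by 0.61 ± 0.09 (adjusted p = 0.00891) and 0.54 ± 0.09 (adjusted p = 0.0148) in Jmjd3 KO against Utx KO. The lysyl oxidase gene Lox, whose enzyme cross-links collagen and elastin, was the gene that fell (-0.75 ± 0.14, adjusted p = 0.0201). Among 7 protease inhibitor genes, edgeR and DESeq2 made no call in Utx KO against Tdt control or in Jmjd3 KO against Utx KO, where 2 each had an unadjusted p under 0.05.

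Of 24 matrix receptor genes, 3 fell in Jmjd3 KO against Tdt control. In Utx KO 2 fell against the control, while between the knockouts 2 were higher and 1 lower in Jmjd3 KO. Itga3, the gene of a laminin-binding integrin chain, had 69.4 and 73.8 CPM in Jmjd3 KO, 77.1 and 73.9 CPM in Utx KO, and 114 and 110.3 CPM in Tdt control. Against Tdt control it fell in Jmjd3 KO (-0.64 ± 0.06, adjusted p = 0.00303) and in Utx KO (-0.57 ± 0.06, adjusted p = 0.0111), both against the same 2 control libraries. Itga6, another laminin-binding chain gene, fell in Jmjd3 KO (-0.28 ± 0.05, adjusted p = 0.0399) and in Utx KO (-0.34 ± 0.05, adjusted p = 0.0309), and both calls were lost under 9 of 13 alternatives, among them leaving out any 1 library (adjusted p from 0.0538 to 0.252). Cd44, a hyaluronan receptor gene, fell in Jmjd3 KO against Tdt control (-0.28 ± 0.04, adjusted p = 0.0106) and against Utx KO (-0.18 ± 0.04, adjusted p = 0.0233). Between the knockouts the laminin receptor gene Bcam rose by 0.40 ± 0.07 (adjusted p = 0.0182) and the integrin gene Itga8 by 0.51 ± 0.12 (adjusted p = 0.0460), calls lost under 5 and 8 of 13 alternatives.

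Other subunits and matrix proteins outside the 38 genes moved in both directions. In the list of other basement membrane subunits, 2 of 13 rose and 3 fell in Jmjd3 KO against Utx KO. Col4a5, a collagen IV chain gene, had 3.32 and 3.21 CPM in Jmjd3 KO, 5.41 and 5.24 CPM in Utx KO, and 3.80 and 3.86 CPM in Tdt control, and fell there by 0.71 on the log2 scale (-0.71 ± 0.11, adjusted p = 0.0104), as Col4a1 and Col4a2 did. Lamb3, a laminin beta chain gene best known from skin, fell in Utx KO against Tdt control (-0.73 ± 0.11, adjusted p = 0.0279; lost under 9 of 13 alternatives, among them leaving out any 1 library, adjusted p from 0.0506 to 0.156) and was higher in Jmjd3 KO than in Utx KO (0.89 ± 0.11, adjusted p = 0.00476). Emilin1, which was in that list although its product belongs to elastic fibres, rose in Jmjd3 KO against Tdt control (0.47 ± 0.05, adjusted p = 0.00609) and against Utx KO (0.73 ± 0.05, adjusted p = 5.89e-04). The netrin gene Ntn4 fell against Utx KO (-0.29 ± 0.05, adjusted p = 0.0185).

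Of 28 other interstitial matrix genes, 1 rose and 3 fell in Jmjd3 KO against Utx KO, and 1 rose and 1 fell in each comparison with the control. Between the knockouts, 5.13% of all genes tested rose and 2.89% fell. Prelp, a leucine-rich proteoglycan gene, had 48.5 and 44.9 CPM in Jmjd3 KO, 55.9 and 52.6 CPM in Utx KO, and 28.8 and 35.5 CPM in Tdt control. It rose in Jmjd3 KO (0.54 ± 0.10, adjusted p = 0.0309) and in Utx KO (0.76 ± 0.10, adjusted p = 0.0182) against the same control libraries. Vcan, the versican gene, fell in Jmjd3 KO against Tdt control (-0.32 ± 0.06, adjusted p = 0.0454), a call lost when any 1 library was left out (adjusted p from 0.0538 to 0.248). Col16a1 fell in Utx KO against Tdt control (-0.59 ± 0.11, adjusted p = 0.0432; lost under 9 of 13 alternatives, among them leaving out any 1 library) and was higher in Jmjd3 KO than in Utx KO (0.93 ± 0.11, adjusted p = 0.00385). Col8a1 (-0.72 ± 0.08, adjusted p = 0.00310), the latent TGF-beta binding protein gene Ltbp2 (-0.78 ± 0.09, adjusted p = 0.00436) and Ccn2, the gene of connective tissue growth factor (-0.80 ± 0.18, adjusted p = 0.0378), fell in Jmjd3 KO against Utx KO.

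The authors' deposited tables give their own comparison of each knockout with Tdt control. For Jmjd3 KO, the authors' deposited table has 2 of the 38 genes higher at an adjusted p under 0.05 (Nid1 and Thbs1) and 5 lower (Col4a1, Col4a2, Col6a2, Sparc and Tnc). For Utx KO, the authors' deposited table has 1 higher (Col12a1) and 8 lower (Bgn, Col18a1, Col6a3, Fbln2, Fn1, Lama5, Lamb1 and Nid2). Each of the 3 genes called here in a comparison with the control is in the authors' deposited table on the same side.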

How the data were processed

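Per the submitters' processing notes, cutadapt 2.6, Salmon 1.1.0 and DESeq2 1.28.1 were used, with the builds mm10 and GRCm38. Per the file headers, the deposited quantification files give TPM and estimated counts per transcript with transcript lengths. Per the file headers, the authors' deposited comparison tables give a mean signal per gene (base mean), p-values, adjusted p-values, and log2 fold changes with their errors. The columns bear the names that DESeq2 gives its output, and the settings behind them are not stated in the labels or headers.

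Of 140748 transcripts, 139448 matched GENCODE M21 (GRCm38) with their version, 416 without it, and 884 did not match. At least 99.82% of the estimated reads of each library matched. Reads and TPM were summed per gene, and the summed counts were rounded. edgeR 4.0.16 under R 4.3.3 fitted genotype to all 6 libraries after TMM normalization and filterByExpr, its filter on low counts, and p-values were adjusted over all 17084 genes. CPM use the normalised library size. The fit had a common biological coefficient of variation of 0.0844 and 3 residual degrees of freedom. Log2 fold changes carry standard errors. The method was tested on counts simulated with the spread that the fit itself had estimated. Over the 3 comparisons, 62.7% to 70.1% of the smallest changes put in were called. Of the calls, 1.84% to 4.85% were false.

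The 38 members and the gene lists were chosen with earlier results of these data known. Values in every library were given for members called in at least 1 comparison and for the 6 with the highest mean TPM, and up to 4 called genes per list and comparison, those with the smallest p, were named. A gene that this rule names is not reported here. Cell markers named singly were picked with their values known. The labels do not tie replicates to separate animals, and p-values therefore measure only the spread between these samples, which may be technical. RefSeq windows (GRCm38.p6) were found for 26 of the 38 members. The alternatives were DESeq2 1.42.0, RLE size factors, a minimum of 1 read in place of the low-count filter, a minimum of 5 CPM in 2 libraries, length offsets, a replicate block, a fit of only the 4 libraries compared and each library left out. For the compartment ratio they were summed CPM, the mean of log2(TPM + 1), and leaving out some members.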

Additional observations from a re-analysis of the deposited data

How the results depend on the processing

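With 3 main calls in Jmjd3 KO against Tdt control, DESeq2 called 9 of the 38 genes, no low-count filter 11 and a replicate block 1, and leaving out 1 library gave 1 to 3 (of all genes, 3.34% were called by DESeq2 and 1.88% with the block). With 3 in Utx KO against Tdt control, DESeq2 called 9, no low-count filter 17, and transcript length offsets, a replicate block and the 4 libraries alone 0 each in edgeR (17 genes had an unadjusted p under 0.05 under each of these 3), and leaving out 1 library gave 0 to 2. DESeq2 called 2.11% of all genes there and the block 0.779%. The 2 calls, without Utx KO replicate 2, were Col15a1 and Col1a1, which the full fit did not call. With 15 in Jmjd3 KO against Utx KO, no low-count filter called 23, a replicate block 12, DESeq2 17, and leaving out 1 library gave 3 to 16 (of all genes, 5.55% were called with the block and 5.78% by DESeq2). Over all genes, no low-count filter called 1872, 1399 and 2856 in Jmjd3 KO against Tdt control, Utx KO against Tdt control and Jmjd3 KO against Utx KO, where the full fit called 513, 293 and 1370. The block rests on replicate numbers that do not pair the samples: deviations of same-numbered libraries had correlations of -0.00813, -0.0107 and -0.0532.

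The compartment ratio in Jmjd3 KO minus Tdt control turned to -0.04 with the mean of log2(TPM + 1) and lay between 0.01 and 0.18 with 1 library left out, and in Utx KO minus Tdt control between 0.01 and 0.19. From summed CPM both were 0.16, and without the highest member of each compartment Jmjd3 KO minus Tdt control was 0.03. In Jmjd3 KO minus Utx KO it was 0.00 from summed CPM, -0.10 without the highest member of each compartment, -0.11 with the mean of log2(TPM + 1), and from -0.05 to 0.04 with 1 library left out, the 0.04 without Jmjd3 KO replicate 1. Among uncalled values, with 1 library left out, Bgn in Jmjd3 KO against Tdt control ranged from -0.14 to 0.10 (without Tdt control replicate 2), Thbs1 in Utx KO against Tdt control from -0.03 (without Utx KO replicate 2) to 0.08, Col3a1 in Jmjd3 KO against Utx KO from -0.08 (without Utx KO replicate 1) to 0.18, and Col5a2 in Utx KO against Tdt control from -0.05 to 0.04 (without Utx KO replicate 1; 0.01 without Tdt control replicate 2). The cause was not tested.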
